A study of Arabidopsis thaliana with 9 samples.

Results

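Pol V is a plant RNA polymerase that makes non-coding RNA from the loci it silences. In RNA-directed DNA methylation these RNAs stay near the chromatin that made them, where siRNAs carried by AGO4, an Argonaute protein, are thought to find them, and cytosines at the locus become methylated in all sequence contexts, CG, CHG and CHH (H is A, C or T). Targets outside the pericentromere are often small transposon remnants in the spaces between genes. The 782 transcripts described here are those of the 4502 listed Pol V transcripts that lay on the chromosome arms, had a partner on neither the other strand nor the AGO4 list, were shorter than 1400 bp and had at most 3 reads in each *nrpe1* library.

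RNA was immunoprecipitated with an anti-NRPE1 antibody (Pol V RIP-seq) from nuclei of the aerial part of seedlings about 2.5 weeks old, fixed with 0.5% formaldehyde. Col-0 is the wild type, and *nrpe1* (nrpd1b-11, in Col-0) lacks a working gene for NRPE1, the largest subunit of Pol V. Both had 2 biological repeats. The AGO4 list came from anti-AGO4 RIP-seq in Col-0 and in *ago4-1*, introgressed into Col-0, with 1 library each, so it has no replicate check. Of the 9 libraries of the series, the other 3 were not analysed here.

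The members were chosen by measured values, the *nrpe1* reads and the AGO4 list, so those values describe the selection and were not tested. No overlap with the AGO4 list means that no listed AGO4-bound transcript was there. AGO4 RIP-seq reads over these regions were not analysed here. The arms were taken as everything outside a window on each of the 5 chromosomes, from 11.5 to 18.0 Mb on chromosome 1, 1.0 to 7.3 Mb on chromosome 2, 10.5 to 17.3 Mb on chromosome 3, 1.5 to 6.4 Mb on chromosome 4 and 9.0 to 15.6 Mb on chromosome 5 of TAIR10. Comparisons are with all 4502 listed transcripts, with 592 that met the same rule inside the windows, with 595 single-strand transcripts of the whole genome that overlapped the AGO4 list, 355 of them on the arms, and with 1171 arm transcripts that overlapped a listed transcript of the other strand. The transcripts of 1 list are not replicates, and the Wilson 95% intervals below cover counting over transcripts only.

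The sequences around the 5′ end of the member with the most Col-0 reads on each chromosome, and of the one member next to a gene known as a silenced target, are shown to give the kind of DNA from which these RNAs came. Each run is 5′ to 3′ on the strand of the transcript, read from TAIR10.1, with the 60 bases before the called start in lower case and the first 120 bases of the transcript in capitals.
PVTrans102, chr1:6744180-6744359, minus strand: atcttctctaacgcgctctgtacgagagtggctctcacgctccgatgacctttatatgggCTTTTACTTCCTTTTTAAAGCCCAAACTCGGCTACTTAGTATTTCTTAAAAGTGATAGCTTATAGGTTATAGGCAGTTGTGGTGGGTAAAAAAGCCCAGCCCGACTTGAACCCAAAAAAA
PVTrans1903, chr2:14062247-14062426, plus strand: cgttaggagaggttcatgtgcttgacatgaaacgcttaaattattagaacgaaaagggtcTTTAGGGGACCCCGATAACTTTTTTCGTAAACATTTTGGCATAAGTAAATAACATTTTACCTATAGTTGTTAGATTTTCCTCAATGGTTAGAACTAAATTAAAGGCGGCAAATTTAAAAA
PVTrans2061, chr3:3424688-3424867, minus strand: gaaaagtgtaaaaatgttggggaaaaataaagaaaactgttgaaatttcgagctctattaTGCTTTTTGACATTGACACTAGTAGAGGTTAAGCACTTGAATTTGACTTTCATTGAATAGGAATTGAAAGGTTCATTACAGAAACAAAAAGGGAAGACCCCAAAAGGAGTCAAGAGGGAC
PVTrans2895, chr4:216623-216802, plus strand: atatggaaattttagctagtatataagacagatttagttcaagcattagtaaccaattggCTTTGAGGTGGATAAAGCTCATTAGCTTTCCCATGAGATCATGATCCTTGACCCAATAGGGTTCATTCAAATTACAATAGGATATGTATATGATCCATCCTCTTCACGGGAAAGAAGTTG
PVTrans3589, chr5:2263001-2263180, minus strand: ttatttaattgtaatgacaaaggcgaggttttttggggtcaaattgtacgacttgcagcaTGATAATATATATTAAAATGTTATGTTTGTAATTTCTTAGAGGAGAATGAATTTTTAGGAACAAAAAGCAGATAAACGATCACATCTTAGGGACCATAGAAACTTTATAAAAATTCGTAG
PVTrans1635, chr2:7680800-7680979, plus strand: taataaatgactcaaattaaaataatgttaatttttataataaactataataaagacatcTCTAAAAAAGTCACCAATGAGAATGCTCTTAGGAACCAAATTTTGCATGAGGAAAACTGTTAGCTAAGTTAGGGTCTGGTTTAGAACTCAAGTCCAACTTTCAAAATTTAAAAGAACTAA

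Sequences before the called starts were searched on both strands for 4 promoter elements of ordinary genes. TATAAA, the core of a TATA box, lay within 100 bases upstream of 178 members (22.8%, Wilson 95% interval 20.0 to 25.8), against 23.2% of all listed transcripts and 25.8% of 27444 protein-coding genes. PVTrans102, PVTrans1903 and PVTrans1635 had it, and PVTrans2061, PVTrans2895 and PVTrans3589 did not. CCAAT lay upstream of 140 members (17.9%) against 19.2% of all listed and 23.0% of genes. GGCCCA was found at 18 (2.30%, against 2.18% of all listed and 8.81% of genes) and CACGTG at 3 (0.384%, against 0.733% and 3.61%). The shares of the members were thus close to those of the whole list for TATAAA and GGCCCA. For CCAAT (Wilson 95% interval 15.4 to 20.7) and CACGTG (0.131 to 1.12, from 3 members) the interval also held the share of the list. The windows of these motifs can share bases, and a match is only a match of letters.

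All members had reads in both Col-0 libraries. In Col-0 repeat 1 they had 6 to 210 reads with a median of 35, and in repeat 2 they had 3 to 168 with a median of 25. The medians over all listed transcripts were 43 and 32, and those of single-strand transcripts with AGO4 were 44 and 32. In *nrpe1*, 766 members had 0 reads in repeat 1 and 724 had 0 in repeat 2, and 711 (90.9%) had none in either. The highest count in an *nrpe1* library was 1 read for 49 members, 2 for 17 and 3 for 5. With *nrpe1* set at a floor of 3 reads per library and the libraries taken as equally deep, the median ratio of Col-0 to *nrpe1* over the 782 was 9.83. The floor equals the rule's limit of 3 reads, so every member's ratio is its mean Col-0 reads divided by 3. The ratio thus restates the Col-0 reads. If the libraries were equally deep it is a lower bound, between 4.83 and 42.8 for the 711 with no *nrpe1* read. The whole libraries' depth is unknown, and the authors called the list for an excess of reads in Col-0, so the difference between the genotypes was set by the selection.

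Per length, the members had a median of 5.16 Col-0 reads per 100 bp, between 1.82 and 97.3. The median was 4.65 inside the pericentromeric windows, 7.02 for single-strand transcripts with AGO4, 6.39 for those with an opposite-strand partner and 5.66 over the whole list. Median length was 595.5 bp, between 132 and 1390 bp, against 689 bp over the list, which also holds longer transcripts.

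PVTrans3589, the longest member and the one with the most reads, lies on the minus strand of chromosome 5 from 2261730 to 2263120. Its counts were 210 and 157 in the Col-0 repeats (mean 183.5 ± 37.5, SD, n = 2) and 0 and 2 in *nrpe1*. It overlaps the pseudogene AT5G07215 on the same strand over 1232 bp, and its nearest protein-coding gene is BAG3, of the BAG family of co-chaperones, 2112 bp away.

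PVTrans2895 was the shortest at 132 bp and had the highest reads per length. Its Col-0 reads were 89 and 168, with a mean 42.8 times the floor of 3 reads, and *nrpe1* had none. It lies on chromosome 4 from 216682 to 216814, on the strand opposite to ATMYC1, a bHLH transcription factor gene, with which it shares 3 bp of UTR.

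PVTrans3496, on chromosome 4 from 14398053 to 14399401, had 126 and 104 reads in Col-0 and none in *nrpe1*. All of its 1348 bp lay in coding sequence of AT4G29200, a beta-galactosidase related gene, on the other strand. PVTrans102, on chromosome 1 from 6744092 to 6744299, had 141 and 78 reads in Col-0 and none in *nrpe1*, and lies 53 bp upstream of AT1G19480, a DNA glycosylase superfamily gene on the other strand. The Col-0 repeats of these 4 differed in which was higher, with repeat 2 ahead for PVTrans2895 alone.

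PVTrans2061, on chromosome 3 from 3423767 to 3424807, had 66 and 147 reads in Col-0 and none in *nrpe1*. It overlaps AT3G10950, a ribosomal protein gene of the zinc-binding family, by 674 bp on the other strand, of which 279 bp are coding and 395 bp intron. PVTrans1057 had 113 and 94 reads in Col-0 and none in *nrpe1* over 232 bp, from 29002361 to 29002593 on chromosome 1, and lies 218 bp upstream of SKIP, a gene for a splicing and transcription factor, on the same strand. On chromosome 2 the highest was PVTrans1903, from 14062306 to 14063649, with 82 and 63 reads in Col-0 and none in *nrpe1*, antisense to AT2G33175, a gene for an uncharacterized protein, over 925 bp. The levels of these transcripts stood far above the median member, as they were picked for.

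At the low end, PVTrans4154 had 24 and 5 reads in Col-0, PVTrans187 had 20 and 12, and PVTrans1062 had 22 and 11, with none in *nrpe1*. Each had more reads in repeat 1. The shortest members after PVTrans2895 were PVTrans3421, with 27 and 58 reads over 161 bp, and PVTrans83, with 55 and 15 reads over 165 bp. PVTrans83 ends 2 bp before AT1G18130, a gene of the aminoacyl-tRNA and biotin synthetase superfamily, on the same strand. The longest after PVTrans3589 and PVTrans3496 was PVTrans4418, with 61 and 49 Col-0 reads, 1 and 0 *nrpe1* reads, antisense over 1245 bp of CB5-E, a cytochrome b5 gene.

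Primers of the qPCR assays name loci by transcript number, and 5 of these numbers belong to members. Besides PVTrans1057, PVTrans1629 had 25 and 31 reads in Col-0, PVTrans2058 had 15 and 26, PVTrans2868 had 17 and 52 and PVTrans3481 had 34 and 8. None had a read in *nrpe1*. Apart from PVTrans1057, these had means of 20.5 to 34.5 reads, around the members' median of 29.5.

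The Col-0 repeats of single transcripts differed widely. With 0.5 added to each count, 100 members (12.8%, Wilson 95% interval 10.6 to 15.3) were over 4-fold apart between the Col-0 repeats, against a background of 9.62% of the 4502 listed transcripts. The share was 13.0% inside the pericentromeric windows, 9.08% for single-strand transcripts with AGO4 and 8.97% for arm transcripts with an opposite-strand partner. Of the 100, 90 were higher in repeat 1 and 10 in repeat 2. Repeat 1 also had more reads in total on the list, 251106 against 189141, and more reads than repeat 2 at 526 members (67.3%). Among the 694 members with at least 10 reads in each Col-0 library, 23 were over 4-fold apart (3.31%). Among all listed with as many reads 175 of 4197 were. With at least 10 reads in each library, a transcript under 50 reads in all cannot be over 4-fold apart. Under 50 reads over both Col-0 libraries were 27.7% of the members and 17.1% of the list. The filter thus weighs differently on each, and these shares do not compare the members with the list.

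The members had fewer reads than the list, and below 75 reads the share over 4-fold apart was higher than above, in both. Of members with under 50 reads over both Col-0 libraries, 14.7% were over 4-fold apart, against 14.5% of all listed with so few. At 50 to 75 reads it was 17.1% against 12.6%, at 75 to 100 reads 2.26% against 8.92%, and at 100 reads or more 4.35% against 4.18%. The part of read number in the difference was not tested.

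PVTrans1037 and PVTrans3250 each had Col-0 counts of 56 in repeat 1 and 3 in repeat 2, and PVTrans3668 had 67 and 4. The most tilted the other way were PVTrans2225 with 6 and 58 reads, PVTrans3787 with 6 and 57 and PVTrans854 with 6 and 44. All 6 were without reads in *nrpe1*. Across the 782 members the Spearman correlation of the repeats was -0.0770 and across all listed transcripts 0.369. It was -0.157 inside the pericentromeric windows, 0.316 for single-strand transcripts with AGO4 and 0.363 for arm transcripts with an opposite-strand partner. Col-0 reads were among the limits by which all transcripts were listed. The fewest seen over both repeats were 29 for the members and 31 for those with AGO4 or with a partner. The transcripts also share their libraries. The part of the selection in these values was not tested.

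**Figure D1:**
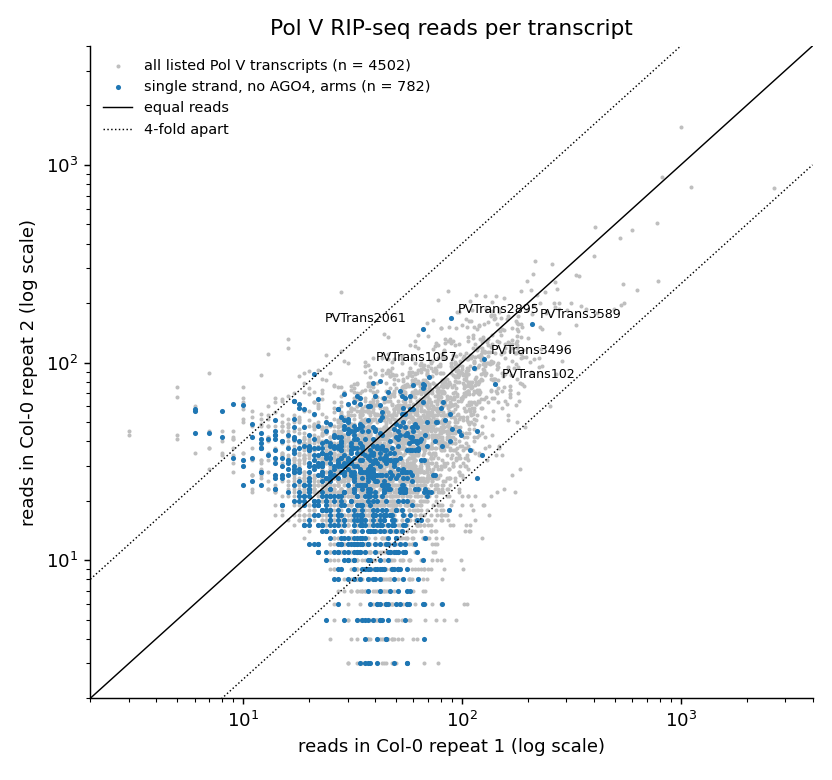
Reads of each Pol V transcript in Col-0 repeat 1 (x, log scale) and Col-0 repeat 2 (y, log scale), with the 782 single-strand arm transcripts without AGO4 in blue over all 4502 listed in grey. The solid line marks equal reads and the dotted lines 4-fold differences, beyond which 100 members lie, and the 6 with the highest means are named.

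Members stood along all 5 chromosomes in similar shares of the listed transcripts of the arms. There were 203 on chromosome 1, 141 on chromosome 2, 148 on chromosome 3, 122 on chromosome 4 and 168 on chromosome 5, or 27.7% to 32.3% of the listed arm transcripts of a chromosome. The plus strand carried 415 of them (53.1%) and the minus strand 367. Per Mb of arm there were 8.25 members on chromosome 5 and 10.5 on chromosome 2.

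Their density fell with distance from the pericentromeric windows, as did that of the whole list. In the first 2 Mb there were 16.2 members and 51.0 listed transcripts per Mb, from 2 to 4 Mb 11.4 and 36.0, and from 8 to 10 Mb 4.38 and 13.7. Members made up 31.7% of the listed transcripts in the first 2 Mb, 23.6% from 4 to 6 Mb and 32.0% from 8 to 10 Mb. The last bin, beyond 12 Mb, held 2 members of 8 listed. Member numbers thus followed those of the list, with the lowest share among the larger bins at 4 to 6 Mb.

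**Figure D2:**
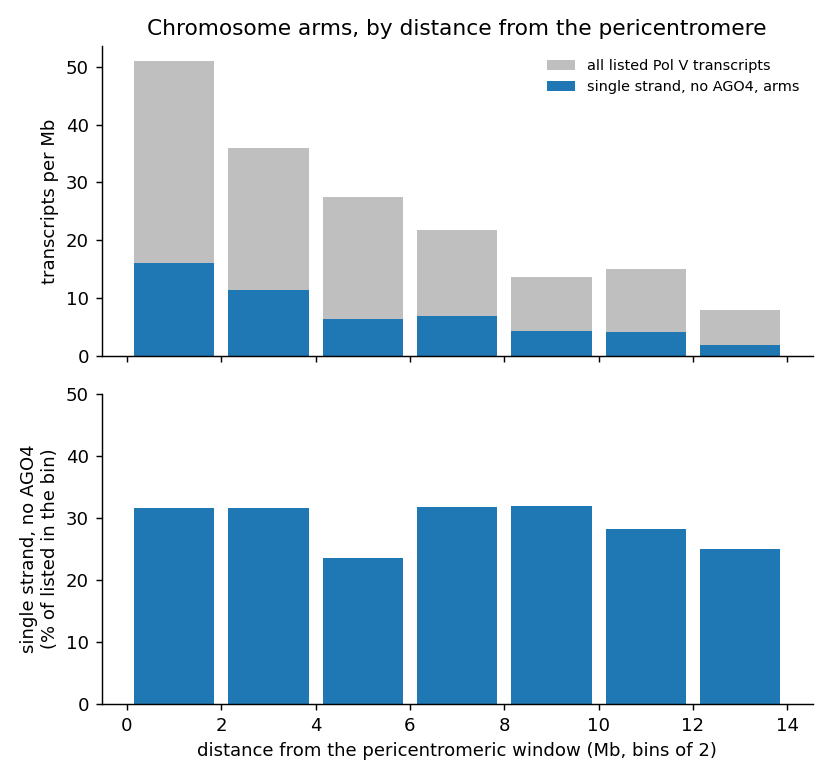
Transcripts per Mb of chromosome arm (upper) and members as a percentage of listed transcripts (lower), in bins of 2 Mb from the edge of the pericentromeric window. Members fell from 16.2 to 4.27 per Mb between the first bin and that of 10 to 12 Mb, while their share stayed between 23.6% and 32.0% there.

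The gene neighbourhood of the members was described against the gene models of TAIR10.1, which are newer than the TAIR10 genes that the authors used to leave out genic reads. Within 1 kb upstream of a gene start lay 490 members (62.7%, Wilson 95% interval 59.2 to 66.0), against 63.9% of all listed transcripts and 52.7% of single-strand transcripts without AGO4 inside the pericentromeric windows. Counting protein-coding genes only, the share was 52.4% against 47.4% of all listed. Members upstream of a coding gene pointed away from it, on the other strand, in 272 cases and along it in 204, and some did both at different genes. Within 1 kb downstream of a coding gene lay 303 (38.7%), and 163 (20.8%) had none within 1 kb.

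By the nearest protein-coding gene, the largest class of members lay over a gene on the other strand. It held 219 (28.0%, Wilson 95% interval 25.0 to 31.3), against 16.7% of all listed transcripts, 14.9% inside the pericentromeric windows, 23.0% of single-strand transcripts with AGO4 and 8.71% of arm transcripts with an opposite-strand partner. Overlap on the gene's own strand was seen at 38 members (4.86%, against 6.31% of all listed). Upstream of their nearest gene lay 176 members on the other strand (22.5%) and 159 on the same strand (20.3%). Downstream of it lay 97 on the same strand and 93 on the other. Reads in TAIR10 genes were left out, and transcripts containing genes removed, before the list was made. The sources used here do not say whether strand was considered in that step. Wholly inside coding genes lay 89 members on the other strand of their nearest gene and 6 on its own. Of arm transcripts with an opposite-strand partner, 0.342% lay wholly inside a coding gene, against 12.1% of the members. The part of that step, and of the need for a listed partner, in these shares was not tested. On the arms alone, 24.2% of the single-strand transcripts with AGO4 lay over a gene on the other strand, a value added after the data were seen.

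**Figure D3:**
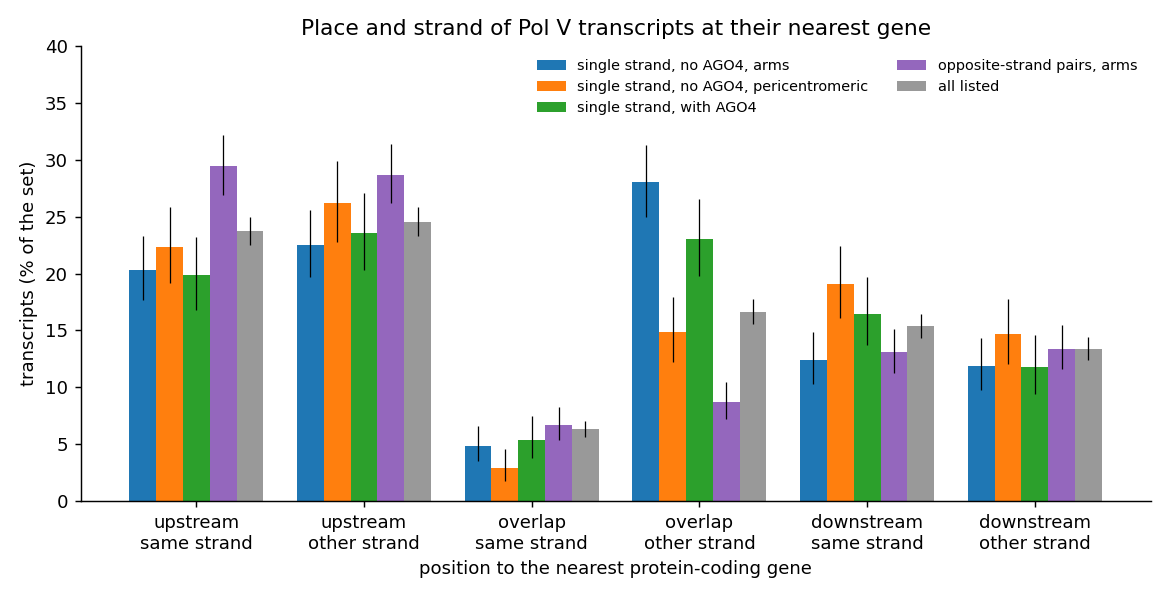
Share of each set of Pol V transcripts (y, percent, with Wilson 95% intervals) by position and strand relative to the nearest protein-coding gene. Overlap on the other strand took 28.0% of the 782 members and 8.71% of the opposite-strand pairs of the arms. Pairs need a listed transcript on both strands, and genic reads were left out before the list was made. The part of this in the shares was not tested.

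Of the 219 members antisense to a gene, 89 lay wholly inside coding genes, and the median had 89.1% of its length there. They overlapped coding sequence in 162 cases, UTR without coding sequence in 46 and intron alone in 11. The 38 on the gene's own strand touched coding sequence in 9 cases and UTR alone in 28, with a median of 14.5% of their length in the gene. Antisense members had median reads of 37 and 27 in the Col-0 repeats, sense members 39 and 23, and those upstream on the other strand 35 and 28, a spread that was not tested.

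In 10 members every base was coding sequence of a gene on the other strand, a set named after its values were seen. Besides PVTrans3496 they included PVTrans1930, with 42 and 5 reads in Col-0, over UGT73C1, a UDP-glucosyl transferase gene. PVTrans3560, over another UDP-glycosyltransferase gene, AT5G03490, had 41 and 37, and PVTrans4291, over ARAD2, an exostosin family gene, had 33 and 17. Over the 10, reads were 28 to 126 in repeat 1 and 3 to 104 in repeat 2, with none in *nrpe1*. The share of such transcripts over the whole list was not counted. Wholly inside a protein-coding gene, in coding sequence or not, lay 95 members (12.1%, against 4.44% of all listed).

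Members also lay over genes of small and other RNAs. MicroRNA genes were overlapped by 0.639% of members against 0.466% of all listed, and tRNA genes by 0.384% against 0.111%. For spliceosomal RNA genes it was 0.128% against 0.0222%. The 5 over microRNA precursor genes were PVTrans54 (MIR8166, 50 and 11 reads in Col-0), PVTrans887 (MIR776, 26 and 37), PVTrans953 (MIR5014a, 53 and 18), PVTrans1957 (MIR8121, 30 and 11) and PVTrans4210 (MIR5659, 55 and 22). All 5 were on the strand opposite to the precursor. So were the 3 over tRNA genes, PVTrans212, PVTrans1726 and PVTrans3604, and PVTrans728 over the spliceosomal RNA gene U6.8p, with 35 and 24 reads. None had a read in *nrpe1*. The authors left out genic reads and removed transcripts containing genes, and the part of this in the strands was not tested. Pseudogenes were overlapped by 64 members (8.18%, against 13.9% of all listed) and lncRNA genes by 43 (5.50%, against 6.57%), on either strand.

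The 5′ ends of the members stood differently by strand around the start of the nearest coding gene. Of 488 members on the other strand, 45 began in the last 250 bp before the gene start, 29 in each of the 2 bins before that and 29 in the first 250 bp inside. Of 294 on the gene's strand, 6 began in the last 250 bp before the start and 2 in the first 250 bp inside, and 26 in the bin from 750 to 500 bp before. A member on the gene's strand that ends before the gene must begin at least its own length away, whereas 1 on the other strand need not.

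**Figure D4:**
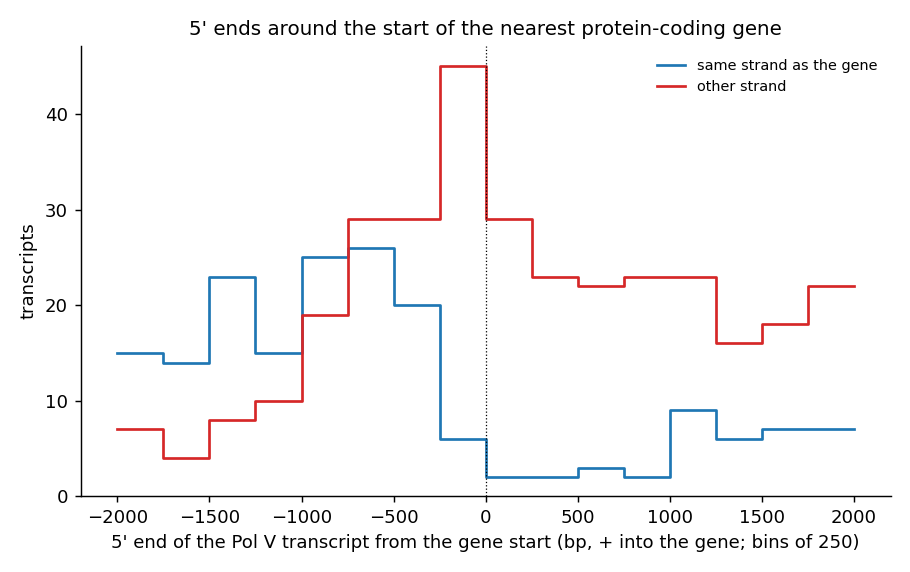
Number of members by the position of their 5′ end from the start of the nearest protein-coding gene (x, bp, negative upstream, bins of 250 bp), on the gene's strand (blue) or the other (red). The bin just before the gene start held 45 members of the other strand and 6 of the same strand.

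One member lay next to a gene of the fixed list of 34 genes of RNA-directed DNA methylation, DNA demethylation and silenced targets. PVTrans1635 lies on the plus strand of chromosome 2 from 7680859 to 7681877 and ends 284 bp before SDC (AT2G17690), on the same strand. SDC encodes an F-box protein and is kept silent in leaves by methylation of tandem repeats in its promoter. PVTrans1635 had 58 and 17 reads in the Col-0 repeats and none in *nrpe1* (mean 37.5 ± 29.0, SD, n = 2). The mean was 12.5 times the read floor set for *nrpe1*, a ratio that restates the Col-0 reads. That ratio is a lower bound only if the libraries were equally deep, and their depth is unknown. The repeats differed by 1.74 on the log2 scale with 0.5 added to each count. The nearest AGO4-bound transcript lay 6528 bp away.

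Tandem repeats lie between the end of PVTrans1635 and the start of SDC, outside the called transcript. The run is the plus strand of chr2:7681878-7682161, with the stretch that matches itself at a shift of 32 bases in capitals, and was added after the values were seen.
PVTrans1635 to SDC: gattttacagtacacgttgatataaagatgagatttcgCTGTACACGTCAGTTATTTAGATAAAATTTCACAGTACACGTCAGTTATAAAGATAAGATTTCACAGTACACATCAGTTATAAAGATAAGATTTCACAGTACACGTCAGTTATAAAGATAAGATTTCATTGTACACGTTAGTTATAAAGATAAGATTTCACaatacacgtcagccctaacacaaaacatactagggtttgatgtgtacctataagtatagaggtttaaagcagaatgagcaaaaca
The capitals cover 161 of the 284 bases, from 246 to 85 bases before the gene start. At a shift of 32 bases 64.7% of all bases in the run were identical, against a mean of 27.6% at the other shifts tried. No run of 15 bases recurs within PVTrans1635, and no other copy of it was found in the genome.

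Elsewhere on the list, 4 of the 34 genes had a listed Pol V transcript over them or within 1 kb, those at SDC, FWA, DMS3 and CLSY1, and that at SDC alone was a member. FWA is a transcription factor gene silenced in vegetative tissue, DMS3 encodes a Pol V cofactor and CLSY1 a chromatin remodeller of the Pol IV pathway. For 17 of the 34 (50%) the nearest listed transcript was a member, at SDC within 1 kb and otherwise farther off. Over all 27444 protein-coding genes this held for 34.7%, and 11.4% had a listed transcript over them or within 1 kb, against 11.8% of the 34. It was PVTrans3634 at DRM1, a de novo methyltransferase gene, 3513 bp away, PVTrans3573 at DME, a DNA glycosylase gene of demethylation, 3854 bp away, and PVTrans914 at NRPD1, the gene of the largest Pol IV subunit, 5944 bp away. Over the 34 genes the median distance was 9325 bp to a listed transcript and 38772 bp to a member.

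Most members had no close neighbour on either list. The nearest AGO4-bound transcript was a median of 11264 bp away, the nearest Pol V transcript of the same strand 17476 bp and that of the other strand 17911.5 bp. An AGO4-bound transcript lay within 1 kb of 41 members (5.24%), a Pol V transcript of the other strand within 1 kb of 51 (6.52%) and one of the same strand within 1 kb of 51. A same-strand neighbour within 1 kb was likewise rare elsewhere, at 9.84% of all listed and 10.6% inside the pericentromeric windows. It was 7.23% for single-strand transcripts with AGO4 and 8.71% for arm transcripts with an opposite-strand partner. For 266 members (34.0%) no listed transcript of either list lay within 10 kb, against 9.51% of all listed. Transcripts that overlap the AGO4 list or an opposite-strand partner have a neighbour by definition, which lowers the share of the list. The rule keeps out overlapping neighbours, so the members' distances follow in part from the selection. It sets no limit on the same strand. There, arm transcripts with an opposite-strand partner had a median of 17427 bp, against 17476 bp for the members and 11235 bp over all listed. Single-strand transcripts without AGO4 inside the pericentromeric windows, chosen in the same way, had medians of 8137.5, 6589 and 7834.5 bp, and 20.9% of them had no neighbour within 10 kb.

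**Figure D5:**
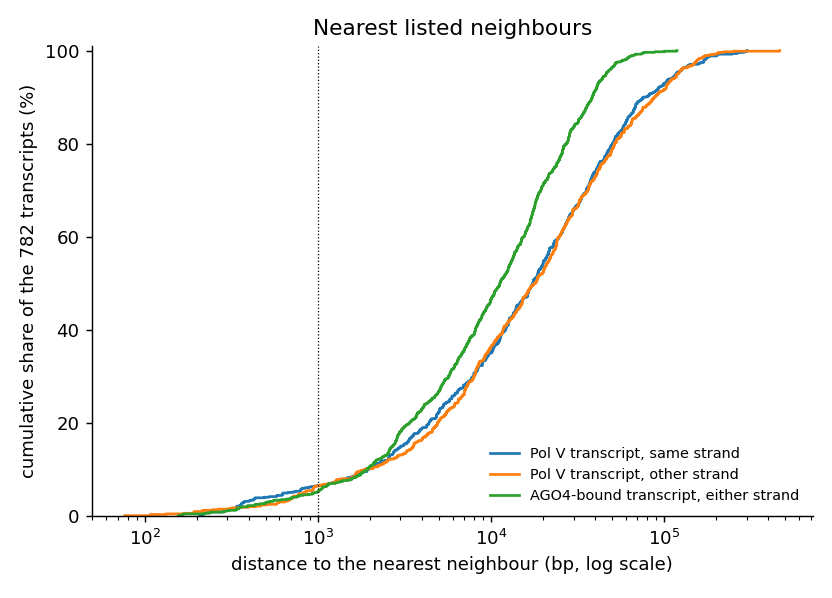
Cumulative share of the 782 members (y, percent) by distance to the nearest listed neighbour (x, bp, log scale), a Pol V transcript of the same strand (blue) or the other strand (orange), or an AGO4-bound transcript (green). The dotted line marks 1 kb, within which 5.24% to 6.52% of members had a neighbour of a given kind.

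The base composition of the members was close to that of the list. Median GC content was 34.3% (order-statistic 95% interval 34.0 to 34.7), against 34.6% over all listed, and the range was 22.3% to 55.9%. Per 100 bases, counted on both strands, the medians were 4.99 CG, 4.07 CHG and 24.9 CHH sites, against 4.94, 4.06 and 25.3 over all listed. Antisense members over genes had a median GC content of 36.5%, and those upstream on the gene's strand 32.8%. A run of 15 bases that recurred in the same orientation was found in 119 members (15.2%, against 20.5% of all listed), and one that recurred inverted in 30 (3.84%, against 4.55%). The members were shorter than the list as a whole, and the part of length in these shares was not tested.

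Another copy in the nuclear genome, at 80% identity or more over at least 50% of the transcript, was found for 242 members (30.9%, Wilson 95% interval 27.8 to 34.3). The share was 31.3% over all listed, 36.7% inside the pericentromeric windows, 37.1% for single-strand transcripts with AGO4 (36.6% on the arms alone) and 27.6% for arm transcripts with an opposite-strand partner. Of the 242, 82 had 1 other copy, 103 had 2 to 4 and 57 had 5 or more. Reads that mapped to several places were placed once by the authors, so counts of members with near-identical copies are uncertain.

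Of the 1083 copies, 512 (47.3%) lay inside the pericentromeric windows, 276 (25.5%) overlapped a listed Pol V transcript and 164 (15.1%) an AGO4-bound transcript. For 81 members, then, a related copy elsewhere overlapped an AGO4-bound transcript although the member did not. For 56 a copy overlapped another member. Copies of the other listed transcripts were not placed in this way, so these counts have no background and may not be particular to the members. PVTrans2704 had the most, 42 copies, with Col-0 counts of 26 and 43 and *nrpe1* counts of 0 and 1. PVTrans36 had 40 copies, with 20 and 24 reads, and PVTrans4478 had 38, with 57 and 39 reads in 256 bp, 4101 bp upstream of MYB28, a regulator of glucosinolate genes. These 3 were named after their values were seen. Members with 5 or more copies were shorter, with a median of 411 bp against 605.5 bp for those with none, and had 7.14 against 5.06 reads per 100 bp. Their median reads per transcript were nearly the same, 29.5 against 30.

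The values on either side of each limit of the rule were as follows. PVTrans3589, PVTrans3496 and PVTrans4418, at 1390, 1348 and 1347 bp, were the longest inside, and PVTrans1917, PVTrans2219 and PVTrans3786, at 1402, 1414 and 1449 bp, the nearest outside, with 23 and 35, 56 and 25, and 31 and 59 reads in Col-0. With 3 *nrpe1* reads in a library, PVTrans1920, PVTrans1967 and PVTrans2045 were kept, and with 4 reads PVTrans1682, PVTrans1692 and PVTrans1895 were not. In Col-0 PVTrans2045 had 47 and 7 reads and PVTrans1895 had 138 and 52.

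The nearest opposite-strand neighbours of members were 77 bp from PVTrans247 and 108 bp from PVTrans4302 and PVTrans4303, which face each other. Just outside, PVTrans4220 and PVTrans4221 overlapped each other by 105 bp and PVTrans2835 overlapped its partner by 131 bp, and no transcript that met the other limits lay between these values. The nearest AGO4-bound transcripts were 157, 162 and 165 bp from PVTrans4260, PVTrans2045 and PVTrans2098, and overlapped PVTrans3302, PVTrans3420 and PVTrans3563, outside the set, by 31, 52 and 58 bp. At the window edge, PVTrans4154 began 458 bp outside that of chromosome 5 and PVTrans4153 1659 bp inside it, with 34 and 5 reads, and PVTrans1150 and PVTrans1149 began 1442 and 6901 bp before that of chromosome 2. PVTrans4152 and PVTrans2961, next inside a window, had 49 and 12 and 85 and 23 reads in Col-0.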

How the data were processed

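Of the 9 RIP-seq libraries, 6 were used. The authors aligned the reads with SOAPsplice to TAIR10 and assembled transcripts from unique reads outside TAIR10 genes, filtered them by read number, density and Col-0 to *nrpe1* fold, and for Pol V tested them in NBPSeq. They deposited 1 list per antibody with raw read counts per transcript and library, not normalised, and for AGO4 also deduplicated counts, which were not used here. The p-value and q-value the authors deposited hold their own test and were not used. Beyond these, 0 per-library columns went unused. Depth of the whole libraries is unknown, and reads on listed transcripts were 1980 to 251106 per Pol V library.

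Members and gene lists were chosen with earlier results of these data known. No test was run, because the rule uses the Col-0 to *nrpe1* contrast. Starts and ends are as deposited, and sequence was read from the base after the start. Python 3.11.15, numpy 2.4.6, scipy 1.17.1, pandas 2.3.3, matplotlib 3.10.9 and BLAST 2.17.0 (E value 1e-05, low-complexity masking) were used with TAIR10.1. Intervals cover counting over transcripts only. They were tested on simulated independent draws, whereas the transcripts share libraries. Reads carry no molecular identifiers. Transcripts were named by rank (highest and lowest mean, length, repeat ratio), as the highest per chromosome, at primer loci, near a limit of the rule or at a listed gene.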

Additional observations from a re-analysis of the deposited data

How the results depend on the processing

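The number of members stayed within 1.5 times of 782 under the 5 alternatives tried, from 678 with windows wider by 0.5 Mb to 898 with windows narrower by 0.5 Mb. The median ratio to *nrpe1* of 9.83 followed the floor, at 29.5 with 1 read and 5.90 with 5 reads. With a repeat left out it was 8.33 or 11.7, which is the median Col-0 reads of the repeat kept over the same floor. The share over 4-fold apart between Col-0 repeats (12.8%) was 9.97% when centred on the median of the list, 10.5% with a pseudocount of 2 and 3.31% with at least 10 reads in each library. Centred in the same way, 331 of the 4502 listed transcripts were over 4-fold apart. The share upstream of a gene (62.7%) was 46.4% for 500 bp, 79.0% for 2 kb, 45.9% for at least 50% of the transcript and 52.4% for protein-coding genes. Median GC was 32.5% over bases outside genes. The share with another copy (30.9%) was 17.5% at 90% identity, 13.2% over 80% of the length and 56.4% for 100 bp. An AGO4-bound transcript lay within 500 bp of 2.81% and 2 kb of 10.6%, and an opposite-strand Pol V transcript within 2.43% and 10.2%. No test was run, so none was made with the repeats as pairs, and the ratio of each repeat alone is the value with the other left out. Transposon annotation was not used, gene models are newer than those of the authors, and single transcripts rest on few reads in 2 libraries.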
